A study of Mus musculus with 8 samples.

Results

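The genes described here are the nuclear-encoded subunits of respiratory complexes I, II and III, together with cytochrome c. They were chosen as a list of 48 gene symbols, 34 of complex I, 4 of complex II, 9 of complex III and 1 for cytochrome c. A gene was kept where the array's platform annotation gave a probe set that symbol alone, and the probe set of highest mean over all arrays stood for it. This left 44 genes of the 22180 genes tested: 31 of complex I, all 4 of complex II, 8 of complex III and Cycs, the gene of cytochrome c. Ndufb2, Ndufb4, Ndufs6 and Uqcr10 were left out, since their probe sets are annotated to several genes.

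The tissue was liver of C57BL/6N mice at 27 days of age, with total RNA of each mouse on 1 whole-transcript array. Per the genotype labels, the 4 knockout mice were Albumin-Cretg/wt:Sco1fl/fl, and their titles call them Alb-Cre Sco1fl/fl. The albumin promoter drives Cre in hepatocytes, and recombination was not measured in these or in other liver cells. Of the 4 mice labelled wild-type, mice 2 and 4 were Albumin-Crewt/wt:Sco1fl/fl, which carry floxed alleles without Cre, and mice 1 and 3 were Albumin-Cretg/wt:Sco1fl/wt, which carry Cre and a single floxed allele. Every mouse thus carried at least 1 floxed Sco1 allele, and the titles call all 4 controls Sco1fl/fl. In wild-type mice 1 and 3 Cre can delete the floxed allele in hepatocytes, so these controls may have 1 Sco1 copy there. That the mice are separate animals is taken from their titles, and the labels give neither sex nor litter.

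The respiratory chain of the inner mitochondrial membrane passes electrons from NADH and succinate to oxygen. Complex I takes them from NADH through a chain of iron-sulfur clusters in its matrix arm and pumps protons through its membrane arm. Complex II, which is also the succinate dehydrogenase of the citric acid cycle, feeds in electrons from succinate. Both reduce ubiquinone, and complex III passes the electrons on to cytochrome c. Cytochrome c delivers them to complex IV, a copper enzyme whose assembly needs SCO1. Hepatocytes are rich in mitochondria. The nuclear subunits of these complexes are made in the cytosol, imported and joined to subunits encoded in mitochondrial DNA, apart from complex II, which is wholly nuclear-encoded.

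The targeted gene was lower in the livers labelled knockout. Sco1 stood at 7.48, 7.62, 7.72 and 7.56 log2 units in knockout mice 1 to 4 and at 7.84, 7.93, 8.19 and 8.04 in wild-type mice 1 to 4, so the groups did not overlap. Its difference of -0.41 ± 0.09 (SE, n = 4 each) missed the threshold over all genes at adjusted p = 0.0633 (limma, Benjamini-Hochberg), and an exact two-sided permutation test over the 70 assignments gave p = 0.0286, the smallest it can give. Whether the probes lie in the deleted part of Sco1 is not known. Of 8 hepatocyte markers, among them Alb, Apoa1 and Cps1, all 8 lay above the median level of all genes and none passed. Array medians over genes lay between 6.47 and 6.54. Both mice numbered 1 stood apart in the clock gene Dbp (9.66 and 9.86, against 6.87 to 7.33 in the other mice), and knockout mouse 4 stood apart in 3 Y-linked genes (mean 7.36, against 8.60 to 8.86).

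The promoters were searched for 7 motifs known from mitochondrial and general promoters, as a description with no test. Promoter windows of 300 bases, from 250 before to 50 after the annotated start, were available from RefSeq (GRCm38.p6) for 36 of the 44 genes. The letters GCGCA, any base and then GCGC, a core of the site of nuclear respiratory factor 1 (NRF1, a regulator of mitochondrial genes), were found on either strand in 8 of the 36 windows (22.2%) and in 6.66% of 17491 windows of protein-coding genes. The letters AAGATGGCG, a core of the YY1 site, were found in 4 of 36 (11.1%, against 1.92%), and CCGGAAG, a core of ETS factor sites such as that of GABP, in 8 of 36 (22.2%, against 11.9%). The CCAAT letters were found in 30.6% (against 39.2%), the GC box GGGCGG in 44.4% (against 46.3%), AAGGTCA, a site read by nuclear receptors such as ERR alpha, in 5.56% (against 4.06%) and TATAAA in 11.1% (against 13.3%). The NRF1 core, CCGGAAG and GGGCGG are rich in G and C, and the windows had a median GC content of 59.0%, against 56.3% in protein-coding genes. A match describes letters and does not show binding.

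The 11 NRF1 matches are shown 5′ to 3′ on the strand of the gene, each in 30 bases with the matching letters in capitals, so that the shared core and its variable base can be compared.
Ndufa11, chr17:56717692-56717721, plus strand: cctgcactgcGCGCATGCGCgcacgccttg
Ndufa5, chr6:24527697-24527726, minus strand: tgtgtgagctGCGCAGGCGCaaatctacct
Ndufa6, chr15:82354249-82354278, minus strand: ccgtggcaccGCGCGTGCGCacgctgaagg
Ndufa8, chr2:36049349-36049378, minus strand: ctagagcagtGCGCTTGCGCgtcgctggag
Ndufs5, chr4:123718265-123718294, minus strand: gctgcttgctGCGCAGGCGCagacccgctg
Sdha, chr13:74350319-74350348, minus strand: cgtttacaggGCGCAGGCGCaccaccactc
Sdha, chr13:74350276-74350305, minus strand: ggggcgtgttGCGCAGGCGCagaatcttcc
Sdha, chr13:74350231-74350260, minus strand: gcgactcggtGCGCAAGCGCagtctgtcgc
Sdhd, chr9:50603909-50603938, minus strand: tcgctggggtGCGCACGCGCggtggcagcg
Uqcrc1, chr9:108936643-108936672, plus strand: cttccttacaGCGCTTGCGCctcagactcc
Uqcrc1, chr9:108936668-108936697, plus strand: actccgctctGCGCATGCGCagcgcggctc

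Sdha, the flavoprotein of succinate dehydrogenase, held 3 of these matches, starting 98, 55 and 10 bases before the annotated start. Uqcrc1, a core protein of complex III, held 2, both after the start. The differences between knockout and wild-type livers of the 8 genes with a match ran from -0.31 to 0.27 log2 units with a median of 0.01, and those of the 28 without from -0.27 to 0.21 with a median of 0.05. For the YY1 letters the median was 0.10 in the 4 genes with a match and 0.04 in the 32 without, and for the ETS letters 0.11 in 8 and 0.04 in 28. The ranges with and without a match overlapped for all 3 motifs. The YY1 letters hold ATG, and whether a match lies at the start of a coding sequence was not examined. The 4 YY1 matches, all after the annotated start and all in complex I, are shown in the same way.
Ndufa9, chr6:126849097-126849126, minus strand: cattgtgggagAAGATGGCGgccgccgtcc
Ndufc1, chr3:51408915-51408944, minus strand: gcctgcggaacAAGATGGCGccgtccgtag
Ndufs4, chr13:114388045-114388074, minus strand: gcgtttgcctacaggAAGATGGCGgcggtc
Ndufs7, chr10:80249462-80249491, plus strand: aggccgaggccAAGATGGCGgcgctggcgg

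None of the 44 genes passed the threshold in either direction, with adjusted p from 0.17 to 0.996 (limma with Benjamini-Hochberg adjustment). Of all 22180 genes tested 1.15% passed, 0.433% higher and 0.717% lower in knockout livers. Before adjustment, 5 of the 44 had a p under 0.05, which is 11.4%, against 16.7% of all genes. These were 3 higher (8.61% of all genes were so) and 2 lower (8.06%). Knockout and wild-type mice did not overlap for 6 genes (5 higher and 1 lower), which is 13.6%, against 10.7% of all genes (5.26% higher and 5.49% lower). Taken over both directions, these shares lie near the background. By direction the 6 genes leaned to the higher side, which all genes did not, and this was not tested. Of the 11090 brighter genes, those above the median level, 13.9% had separate groups, 493 higher and 1054 lower. With renewed quantile normalization 9 of the 44 had separate groups, a larger share than the 9.39% of all genes. Under that setting 10 had an unadjusted p under 0.05, with none past the adjusted threshold. The 95% intervals of the 44 differences all lay between -0.60 and 0.54 log2 units. By complex, the median difference was 0.01 in complex I, 0.12 in complex II and 0.10 in complex III, beside 0.03 over all genes and -0.02 over the 11090 brighter genes, among which 42 of the 44 fall. The complex III median was 0.059 without wild-type mouse 1.

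**Figure D1:**
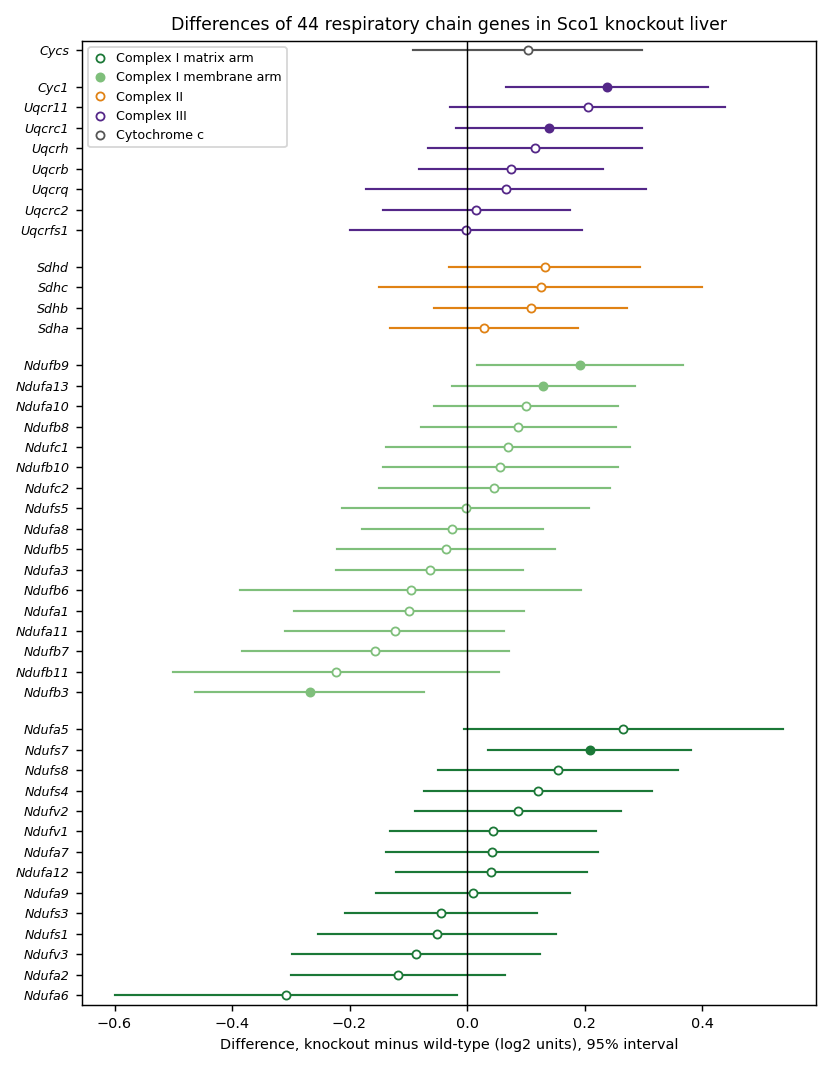
Difference between 4 knockout and 4 wild-type livers (horizontal axis, log2 units, point) with its 95% limma interval (line) for each of 44 genes, ordered within complex. Filled points mark the 6 genes whose groups did not overlap. The intervals of 39 genes cross 0, and the points of complexes II and III lie at or to the right of 0 while those of complex I lie on both sides.

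Complex II had 4 positive differences in 4 genes, none of which passed. Of all genes 57.2% had a positive difference, and of the 11090 brighter genes 44.5%. Sdha, which binds FAD and oxidises succinate, stood at 12.21, 12.32, 12.28 and 12.42 log2 units in knockout mice 1 to 4 and at 12.28, 12.28, 12.29 and 12.26 in wild-type mice 1 to 4, a difference of 0.03 ± 0.07 (SE, adjusted p = 0.877). Knockout mouse 1 was the lowest of the 8 mice and the other 3 knockout mice lay close to or above the controls. Sdhb, the iron-sulfur subunit, stood at 10.56, 10.66, 10.60 and 10.74 in knockout and at 10.55, 10.54, 10.59 and 10.44 in wild-type mice, a difference of 0.11 ± 0.07 (adjusted p = 0.494). The groups overlapped through knockout mouse 1 alone, which lay below wild-type mouse 3.

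Sdhc and Sdhd form the membrane anchor, which binds heme and ubiquinone. Sdhc stood at 11.12, 10.65, 10.79 and 10.43 in knockout and at 10.58, 10.65, 10.61 and 10.65 in wild-type mice, with a difference of 0.13 ± 0.12 (adjusted p = 0.642). It had the largest spread within groups of the 4 genes, knockout mouse 1 being the highest of all mice and knockout mouse 4 the lowest. Sdhd stood at 11.17, 11.36, 11.29 and 11.37 in knockout and at 11.19, 11.19, 11.12 and 11.16 in wild-type mice, with a difference of 0.13 ± 0.07 (adjusted p = 0.395). Knockout mouse 1 lay among the controls, and the other 3 knockout mice lay above all 4 of them. Without both mice numbered 1, the difference of Sdhc was -0.01.

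In complex III, 7 of 8 genes had positive differences (87.5%, against 57.2% of all genes and 44.5% of the brighter genes) and none passed. Cyc1, the heme-bearing cytochrome c1 that hands electrons to cytochrome c, stood at 11.74, 11.61, 11.79 and 11.70 log2 units in knockout mice and at 11.41, 11.54, 11.55 and 11.38 in wild-type mice. Every knockout mouse lay above every control, and the difference of 0.24 ± 0.08 corresponds to 118% of the wild-type level, with the smallest adjusted p of the 44 genes, 0.17. Over 20 alternative settings this adjusted p lay between 0.0894 and 0.487. Uqcrfs1, the Rieske iron-sulfur protein, stood at 8.93, 9.03, 9.19 and 9.19 in knockout and at 9.13, 9.14, 9.14 and 8.93 in wild-type mice, a difference of -0.0014 ± 0.09 (adjusted p = 0.996). Its groups overlapped fully, and its interval of -0.20 to 0.20 overlaps that of Cyc1, 0.07 to 0.41. Cyc1 and Uqcrfs1 were not tested against each other. The third catalytic subunit, cytochrome b, is encoded in mitochondrial DNA.

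The core proteins of complex III are related to mitochondrial processing peptidase. Uqcrc1 stood at 12.01, 11.98, 11.95 and 11.82 in knockout and at 11.81, 11.80, 11.80 and 11.79 in wild-type mice, a difference of 0.14 ± 0.07 (adjusted p = 0.361). The groups did not overlap, though knockout mouse 4 lay beside the controls, which were nearly equal to each other (SD 0.0084). Uqcrc2 stood at 11.95, 12.08, 11.94 and 12.04 in knockout and at 11.99, 11.91, 12.02 and 12.02 in wild-type mice, with overlapping groups and a difference of 0.02 ± 0.07 (adjusted p = 0.937).

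The other 4 measured subunits of complex III are small accessory proteins. Uqcr11 stood at 10.04, 9.98, 10.37 and 10.19 in knockout and at 9.88, 10.14, 9.96 and 9.78 in wild-type mice, a difference of 0.21 ± 0.11 (adjusted p = 0.362). Wild-type mouse 2 lay above knockout mice 1 and 2. Uqcrh, the hinge protein that lies beside cytochrome c1, stood at 9.49, 9.44, 9.54 and 9.45 in knockout and at 9.20, 9.52, 9.36 and 9.38 in wild-type mice, a difference of 0.12 ± 0.08 (adjusted p = 0.509). The knockout mice lay close together and wild-type mouse 2 lay within their range. Uqcrb stood at 12.97, 12.91, 12.96 and 13.02 in knockout and at 12.83, 12.89, 12.98 and 12.85 in wild-type mice, a difference of 0.08 ± 0.07 (adjusted p = 0.621). Uqcrq stood at 8.56, 8.92, 8.94 and 9.07 in knockout and at 8.77, 8.91, 8.83 and 8.71 in wild-type mice, a difference of 0.07 ± 0.11 (adjusted p = 0.789). It had the largest spread within groups in this complex, and knockout mouse 1 was the lowest of the 8.

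Cycs, the mobile carrier between complexes III and IV and a trigger of apoptosis when released to the cytosol, stood at 12.08, 12.06, 12.06 and 12.10 in knockout and at 11.76, 11.98, 12.16 and 11.99 in wild-type mice. The knockout mice lay within 0.05 of each other while the controls spread on both sides of them, and the difference was 0.10 ± 0.09 (adjusted p = 0.585). The annotation gives Cycs to 5 probe sets, whose differences ran from -0.08 to 0.15, and 2 of these hold identical values on every array. Cycs has processed pseudogenes, so these probe sets may read other copies. Ndufa8, Ndufa11 and Ndufa12 have 2 probe sets each, and none of the probe sets of these genes passed when all 23521 were tested.

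Complex I was divided between the directions, 16 of its 31 genes being higher and 15 lower in knockout livers, with no gene past the threshold. Its share of higher genes, 51.6%, lay between those of all genes (57.2%) and of the brighter genes (44.5%). Of its 14 measured matrix arm genes 9 were higher, with a median of 0.04, and of its 17 membrane arm genes 7 were higher, with a median of -0.02. The 6 measured core subunits, which carry flavin, iron-sulfur clusters or the ubiquinone site, had a median of 0.07, and the 25 accessory subunits a median of -0.0022. These classes are described by their counts, and no p was computed between them.

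Among core subunits of the matrix arm, Ndufs7 holds the last iron-sulfur cluster before ubiquinone. It stood at 12.71, 12.53, 12.63 and 12.44 log2 units in knockout and at 12.37, 12.34, 12.39 and 12.39 in wild-type mice. All knockout mice lay above all controls, and the difference was 0.21 ± 0.08 (adjusted p = 0.219). Ndufs8, which carries further iron-sulfur clusters, stood at 11.41, 11.15, 11.41 and 11.09 in knockout and at 11.17, 11.11, 11.13 and 11.04 in wild-type mice, a difference of 0.15 ± 0.09 (adjusted p = 0.427). Knockout mice 1 and 3 lay above the controls and mice 2 and 4 among them.

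Accessory subunits of the matrix arm had differences in both directions, none of which passed. Ndufa6, a subunit of the LYR family, stood at 10.07, 10.66, 10.38 and 10.77 in knockout and at 10.81, 10.78, 10.76 and 10.76 in wild-type mice, a difference of -0.31 ± 0.13 (adjusted p = 0.275). The controls were nearly equal, the knockout mice spread below them, and knockout mouse 4 reached their range. This was the largest spread within groups in complex I, with an SD of 0.31 in knockout against 0.02 in wild-type mice. Ndufa5 stood at 8.34, 8.05, 8.52 and 8.38 in knockout and at 7.76, 8.17, 8.23 and 8.07 in wild-type mice, a difference of 0.27 ± 0.12 (adjusted p = 0.31). Knockout mouse 2 lay among the controls and the other 3 lay above them. Ndufa2, which has a thioredoxin-like fold, stood at 9.73, 9.86, 9.86 and 9.73 in knockout and at 9.77, 10.05, 9.92 and 9.91 in wild-type mice, with a difference of -0.12 ± 0.08 (adjusted p = 0.504).

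In the membrane arm, Ndufb3 was the single gene of the 44 whose knockout mice all lay below the controls. It stood at 7.56, 7.61, 7.38 and 7.42 in knockout and at 7.73, 7.61, 7.90 and 7.80 in wild-type mice, a difference of -0.27 ± 0.09 (adjusted p = 0.172). Knockout and wild-type mouse 2 differed only in the third decimal. Ndufb9, a LYR family subunit of this arm, stood at 12.10, 11.96, 11.998 and 11.89 in knockout and at 11.77, 11.84, 11.89 and 11.68 in wild-type mice, a difference of 0.19 ± 0.08 (adjusted p = 0.258). Its groups were likewise separate by a margin in the third decimal, between knockout mouse 4 and wild-type mouse 3. Ndufa13, also known as GRIM-19, stood at 11.37, 11.36, 11.46 and 11.42 in knockout and at 11.25, 11.33, 11.31 and 11.20 in wild-type mice, a difference of 0.13 ± 0.07 (adjusted p = 0.384). Every knockout mouse lay above every control.

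The remaining membrane arm genes with the smaller p had overlapping groups. Ndufb11 stood at 6.30, 5.86, 6.03 and 5.95 in knockout and at 6.12, 6.50, 6.39 and 6.03 in wild-type mice, below the array medians, where the array reads poorly, with a difference of -0.22 ± 0.13 (adjusted p = 0.399). Ndufb7, on the intermembrane space side, stood at 8.93, 9.38, 9.33 and 9.31 in knockout and at 9.43, 9.48, 9.33 and 9.34 in wild-type mice, a difference of -0.16 ± 0.10 (adjusted p = 0.473). Knockout mouse 1 alone made most of that difference. Ndufa11 stood at 10.54, 10.74, 10.71 and 10.55 in knockout and at 10.88, 10.81, 10.67 and 10.68 in wild-type mice, a difference of -0.12 ± 0.08 (adjusted p = 0.491). Ndufa10, which resembles nucleoside kinases, stood at 11.77, 11.71, 11.69 and 11.59 in knockout and at 11.58, 11.63, 11.59 and 11.57 in wild-type mice, a difference of 0.10 ± 0.07 (adjusted p = 0.503). The other 19 genes of complex I had differences between -0.10 and 0.12 and adjusted p of 0.518 or more. Of these, Ndufs5 was dim, at means of 4.83 in each group.

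**Figure D2:**
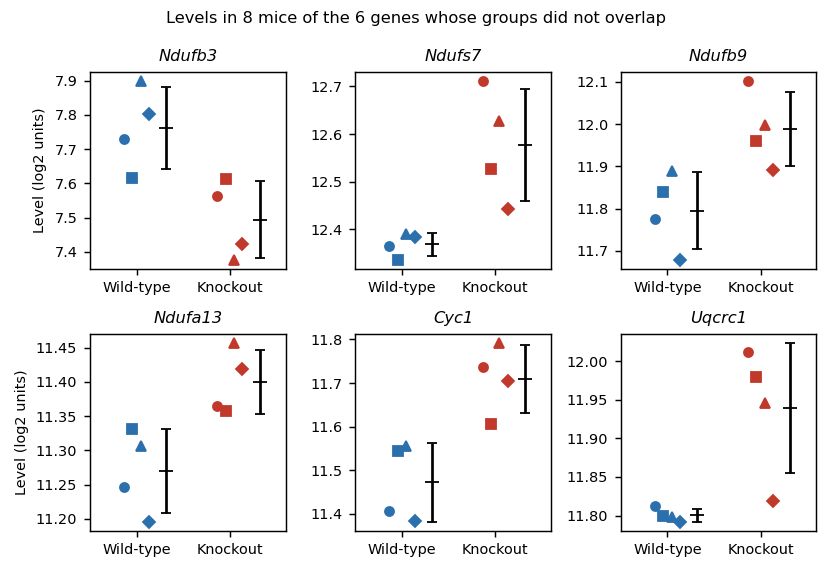
Level in each of 8 livers (vertical axes, log2 units, a separate range for each gene) for the 6 genes whose groups did not overlap. Circles, squares, triangles and diamonds are mice 1 to 4, and black bars are the mean ± SD of 4 mice. Ndufb3 is lower and the other 5 are higher in knockout mice, and the smallest gaps are those of Ndufb3, Ndufb9 and Uqcrc1.

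So that the promoters of the complex I genes with the smallest p in each direction can be compared, their upstream sequences are shown, 250 bases up to the annotated start, in RefSeq GRCm38.p6, with letters matching any of the 7 motifs in capitals. The lower gene, Ndufb3, held a single match, the reversed CCAAT letters. The higher gene, Ndufs7, held a single match upstream, TATAAA, beside the YY1 match after its start.
Ndufb3, chr1:58586147-58586396, plus strand: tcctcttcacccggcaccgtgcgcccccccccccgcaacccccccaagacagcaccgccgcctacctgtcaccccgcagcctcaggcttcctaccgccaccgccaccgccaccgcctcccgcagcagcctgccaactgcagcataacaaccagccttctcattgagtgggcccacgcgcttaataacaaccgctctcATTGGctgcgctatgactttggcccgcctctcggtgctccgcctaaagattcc
Ndufs7, chr10:80249199-80249448, plus strand: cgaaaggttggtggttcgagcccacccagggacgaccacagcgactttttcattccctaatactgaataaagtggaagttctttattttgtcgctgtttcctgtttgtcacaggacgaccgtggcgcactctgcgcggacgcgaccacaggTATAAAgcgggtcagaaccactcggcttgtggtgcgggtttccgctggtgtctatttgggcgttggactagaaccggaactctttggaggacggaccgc

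The complexes were then set against each other by the mean log2 level of their genes in each mouse, as a description with no test. Complex I means lay at 9.91, 9.98, 9.96 and 9.94 in knockout mice 1 to 4 and at 9.93, 9.98, 9.98 and 9.91 in wild-type mice 1 to 4, with a difference of -0.0013 between groups. Complex II means lay at 11.26, 11.25, 11.24 and 11.24 in knockout and at 11.15, 11.16, 11.15 and 11.13 in wild-type mice, with a difference of 0.10 and no overlap. No single gene of complex II had separate groups, and the order of the knockout mice in Sdhc, with mouse 1 highest and then mice 3, 2 and 4, was the reverse of their order in Sdha, Sdhb and Sdhd. Complex III means lay at 10.71, 10.74, 10.84 and 10.81 in knockout and at 10.63, 10.73, 10.71 and 10.61 in wild-type mice, with a difference of 0.11 and overlap between knockout mouse 1 and wild-type mouse 2.

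Taken within each mouse, the mean of complex III minus that of complex I was 0.80, 0.76, 0.88 and 0.87 in knockout and 0.70, 0.75, 0.72 and 0.70 in wild-type mice. The mean of complex II minus that of complex I was 1.36, 1.26, 1.28 and 1.30 in knockout and 1.22, 1.18, 1.17 and 1.22 in wild-type mice. Neither quantity overlapped between groups, and how often such quantities separate in other sets of genes was not computed. The differences between groups were 0.11 and 0.10. With any 1 mouse left out these lay at 0.09 to 0.13 and at 0.08 to 0.11. Complex III minus complex II overlapped, with a difference of 0.0083, and so did the matrix arm minus the membrane arm of complex I, with a difference of 0.05. The levels of different probe sets are not on 1 scale, so the shift between groups and not the sign within a mouse is what these values carry.

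**Figure D3:**
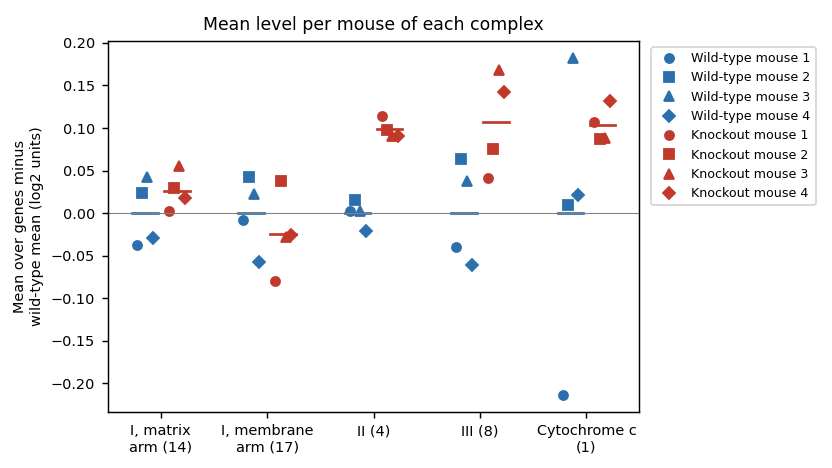
Mean level over the genes of each complex (number of genes in brackets) in each liver, less the mean of the 4 wild-type livers (vertical axis, log2 units). Blue is wild-type and red is knockout, symbols are mice 1 to 4 and lines are group means. Complex II is separate between groups, complex III overlaps in knockout mouse 1 and wild-type mouse 2, and both arms of complex I and cytochrome c overlap.

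Markers of some other cell types lay on the higher side in the same livers without passing, and their part in these small shifts was not tested. Of all genes 57.2% were higher in knockout livers, and of the brighter genes 44.5%, so the share was larger among dimmer genes. Only 3 of the 6 muscle and 2 of the 4 lymphocyte markers lay above the median level of all genes. Of 6 skeletal muscle markers, which come from a tissue also rich in mitochondria, 6 were higher and none passed, with Cox7a1 among them and a mean level of 6.27 to 6.58 in knockout and 5.95 to 6.13 in wild-type mice. Of 4 lymphocyte markers measured of 6 listed, 4 were higher and none passed (6.58 to 6.78 against 6.38 to 6.46). Of 7 Kupffer cell markers 7 were higher and none passed, with overlapping mean levels (9.48 to 10.02 against 9.33 to 9.93). Of 5 endothelial markers 5 were higher, of 6 stellate cell markers 2 and of 4 cholangiocyte markers 2, the group means of each list overlapping and none of their genes passing. Hepatocyte markers overlapped (12.47 to 12.61 against 12.47 to 12.68). Of 4 erythroid markers listed 1 was measured, Slc4a1, with a difference of 0.01 (limma, adjusted p = 0.982). In whole liver, a change in the share of a cell type and a change in RNA per cell cannot be told apart.

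The spread among knockout livers was the larger for most of the 44 genes. The SD over 4 mice was larger in knockout than in wild-type livers for 32 of the 44 genes (72.7%), against 58.8% of all genes. The median SD of the 44 was 0.107 in the knockout group and 0.0628 in the control group. Both lay below the medians over all genes, 0.138 and 0.119. All 4 genes of complex II, 23 of 31 of complex I and 5 of 8 of complex III had the larger SD in knockout livers. The median SD of complex III was nonetheless smaller in the knockout group, at 0.0815 against 0.0871, and so was the SD of Cycs, at 0.021 against 0.163. Knockout mouse 1 held the highest or the lowest value of the 8 mice for 25 genes, the lowest for 16 and the highest for 9, which is 56.8% of the genes, against 32.8% of all genes. No other mouse did so for more than 15. Without knockout mouse 1 the median differences were 0.02 in complex I, 0.10 in complex II and 0.11 in complex III.

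The 2 control genotypes were then separated in a fit with 3 groups. No gene of the 44 passed against the Cre-free controls (0.212% of all genes passed), against the controls with Cre and a single floxed allele (0.131%) or between the control genotypes (0% of all genes). At an unadjusted p under 0.05 there were 2 of 44 against Cre-free controls (11.5% of all genes), 2 against controls with Cre (11.8%) and none between controls (3.03%). Median differences of complexes I, II and III were 0.04, 0.11 and 0.08 against Cre-free controls and -0.01, 0.11 and 0.10 against controls with Cre. Both comparisons share the knockout mice. Between controls, those with Cre minus those without, the medians were 0.02, -0.0010 and 0.01. Cyc1 differed by 0.25 ± 0.10 from Cre-free controls and by 0.23 ± 0.10 from controls with Cre (adjusted p = 0.406 and 0.42), while Uqcrh differed by 0.03 ± 0.10 and by 0.20 ± 0.10 (adjusted p = 0.935 and 0.451).

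Other genes of the same pathway were read from fixed lists. For these lists, 57.2% of all genes were higher in knockout livers, but only 44.5% of the brighter genes, whose median was -0.02. Assembly factors, which build the complexes but are not part of them, lay mostly on the lower side, and none passed. Of those measured, 16 of 17 for complex I, 4 of 4 for complex II and 6 of 6 for complex III were among the brighter genes, which lean the same way. Of 17 measured complex I assembly factors 13 were lower, with a median of -0.04, and Ndufaf7, an arginine methyltransferase that acts on a core subunit, had the smallest p at -0.42 ± 0.10 (adjusted p = 0.0694, and 0.0407 when dim genes were left out). Ndufaf1 stood at -0.35 ± 0.12 and Acad9 at -0.23 ± 0.10 (adjusted p = 0.18 and 0.298). Of 4 complex II assembly factors 3 were lower, with a median of -0.15, and Sdhaf4, which acts on flavinated Sdha, stood at -0.49 ± 0.18 (adjusted p = 0.209), Sdhaf3 at -0.22 ± 0.10 and Sdhaf2 at -0.08 ± 0.07. Of 6 complex III assembly factors 4 were lower, with a median of -0.12, and Bcs1l, which inserts the Rieske protein, stood at -0.22 ± 0.08 (adjusted p = 0.206), Uqcc3 at -0.10 ± 0.08 and Lyrm7 at -0.13 ± 0.11.

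Genes that serve several complexes did not pass either. Of 12 ubiquinone synthesis genes 7 were lower, with a median of -0.04, Coq2 standing at -0.35 ± 0.09, Coq10a at 0.29 ± 0.10 and Pdss2 at -0.21 ± 0.08 (adjusted p = 0.0952, 0.17 and 0.235). Of 10 iron-sulfur cluster genes 7 were higher, with a median of 0.05, the chaperone gene Hspa9 standing at 0.19 ± 0.07, Hscb at -0.20 ± 0.09 and Isca1 at 0.12 ± 0.08. Of 8 genes whose enzymes bring electrons to ubiquinone by other routes 6 were lower, with a median of -0.03, and Prodh stood at 0.35 ± 0.11, Etfdh at -0.18 ± 0.07 and Gpd2 at 0.19 ± 0.09. Hccs, which attaches heme to both c-type cytochromes, stood at 0.09 ± 0.07 (adjusted p = 0.564), and the testis cytochrome c gene Cyct, dim in liver at means of 5.49 and 5.17, stood at 0.32 ± 0.08 (adjusted p = 0.0725, and 0.0497 with array weights). The complex I subunit gene Ndufab1 stood at -0.09 ± 0.10, and Ndufa4 and Ndufa4l2, once counted with complex I, stood at -0.03 ± 0.09 and -0.02 ± 0.09.

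The partner subunits encoded in mitochondrial DNA and the nuclear subunits of the later complexes did not pass either. Of 10 transcripts of the mitochondrial genome 9 were higher and none passed, with a median of 0.04, ND5 lying at 13.54 in the knockout group against 13.49 in the control group, with COX1 and ND4L at differences of 0.05 ± 0.07 each. The 9 higher transcripts lie near the highest value of the table, 13.88, where a rise is hard to see. The lower one, ND6, chosen after its values were seen, stood at 7.16 in the knockout group and 7.37 among controls, a difference of -0.20 ± 0.37 (adjusted p = 0.813). Of 12 complex IV subunits 10 were higher, with a median of 0.11, and of 16 ATP synthase subunits 9 were higher, with a median of 0.01. The mean level of the complex IV subunits did not overlap between groups, at 10.21 to 10.26 in knockout and 10.04 to 10.12 in wild-type mice. Separate means were thus not particular to complex II. Those of ATP synthase overlapped (9.70 to 9.86 against 9.75 to 9.81). Cox7a1, the muscle and heart isoform, stood at 0.73 ± 0.16 (adjusted p = 0.055, below the threshold under 5 of 20 alternatives), Cox4i2 at 0.20 ± 0.08 and Cox7a2 at 0.21 ± 0.10, and of ATP synthase Atp5k stood at 0.32 ± 0.11, Atp5o at -0.17 ± 0.09 and Atp5e at -0.18 ± 0.12.

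**Figure D4:**
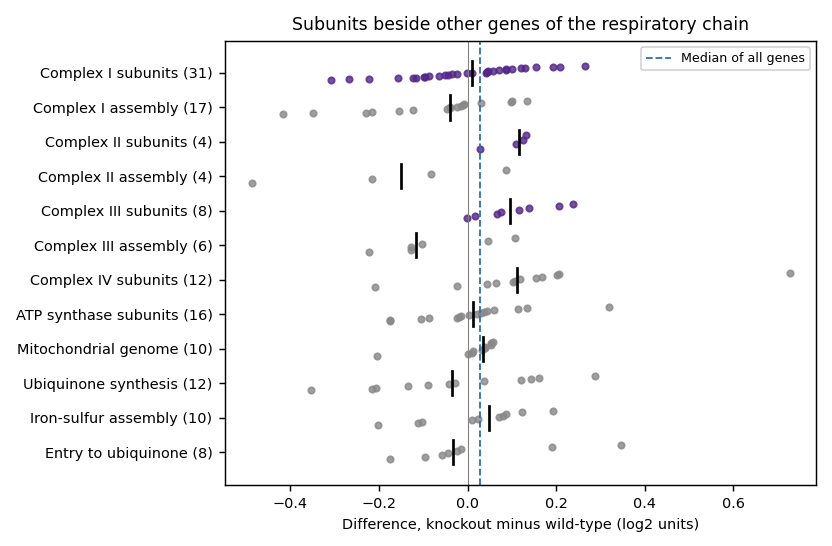
Differences between knockout and wild-type livers (horizontal axis, log2 units) of the genes in each list (number measured in brackets), a point per gene and a black line at the median. Purple points are subunits of complexes I to III and the dashed line is the median of all genes. No point passed the threshold, and the medians of the 3 lists of assembly factors lie left of 0.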

How the data were processed

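Per the labels' protocols, liver RNA was hybridised to 1 Affymetrix array per mouse. The authors deposited log2 expression values of 39137 probe sets made by RMA with oligo version 1.24, per the submitters' processing notes. The log2 scale was inferred from the method and the range of values, 1.28 to 13.88. RMA evens the arrays by quantiles and pulls large differences toward 0. Probe sets were named by the platform annotation: 23521 had 1 symbol, 1814 several and 13802 none. Mitochondrial and ATP synthase names were matched through a table of aliases written after the files were seen. The chip definition and genome build are not given in the sources used here.

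Knockout minus wild-type was fitted over 22180 genes with limma 3.58.1 in R 4.3.3 (lmFit, eBayes, two-sided), with Benjamini-Hochberg adjustment over all genes and a threshold of 0.05, and tested on simulated data first. Members, lists and tests were chosen with earlier results of these data known. Named genes are all of complexes II and III, Cycs, the 12 of complex I and 3 of each other list with the smallest p, and Sco1. Alternatives were the variance model, normalization, centring, a filter on dim genes, the use of probe sets, mouse number as a block, array weights, each control genotype alone, the Y-linked level as a covariate, and mice left out. Python 3.11.15, pandas 2.3.3 and matplotlib 3.10.9 were used. With 4 mice a group, the number of arrays limits precision.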

Additional observations from a re-analysis of the deposited data

Results flagged for a closer look

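Of 176 groups of 4 values examined, 6 had a mouse far from the other 3 by Dixon's criterion, which flags about 5% of groups by chance. Knockout mouse 1 was low for Ndufa1 at 8.61 (the others 8.89 to 8.94), for Ndufb7 at 8.93 (9.31 to 9.38) and for Prodh at 10.30 (10.70 to 10.73). Wild-type mouse 4 was low for Uqcrfs1 at 8.93 (9.13 to 9.14). Wild-type mouse 3 was high for Sdhaf2 at 9.07 (8.88 to 8.89), and wild-type mouse 1 was high for Gpd2 at 9.66 (9.53 to 9.55).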

How the results depend on the processing

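No gene of complexes I to III and no Cycs passed in either direction under any of the 20 alternatives, 8 of which left out 1 mouse. The number of these genes with separate groups was 4 (arrays centred) to 9 (renewed quantile normalization) under the alternatives that kept all 8 mice and no covariate, against 6, while 10.7% and 9.39% of all genes had separate groups under those 2. The shift of complex III over complex I was 0.09 to 0.13 and that of complex II over complex I 0.08 to 0.11 under all 20. The median of complex II was 0.14 with renewed quantile normalization, 0.0872 with arrays centred, 0.0869 with the Y-linked covariate and 0.10 without both mice numbered 1, and 0.091 to 0.12 with 1 mouse left out. The median of complex I was -0.027 to 0.033 with 1 mouse left out, the lowest without knockout mouse 2. That of complex III was 0.066 with arrays centred and 0.059 to 0.12 with 1 mouse left out, the lowest without wild-type mouse 1. Sco1, at -0.41, passed with a trended robust variance (adjusted p = 0.0464) and without dim genes (0.036). Genes called higher and lower over the whole table, 96 and 159, were 159 and 300 with the trended robust variance, 4 and 2 with Cre-carrying and 7 and 9 with Cre-free controls only, 28 and 37 without both mice numbered 1, and 29 to 65 and 60 to 119 with 1 mouse left out. Lower genes were 271 with arrays centred, 319 without dim genes and 245 with array weights, and higher genes were 45 with the Y-linked covariate.

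No label says that mouse numbers pair the mice, and the deviations of same-numbered mice correlated at 0.27, -0.02, 0.03 and -0.10. Knockout mouse 1 correlated best with wild-type mouse 1, and both stood apart in Dbp. Knockout mice 2, 3 and 4 each correlated best with a control of another number. With the replicate block 68 genes were higher and 142 lower. Among 57 named genes, 1102 of 1136 values kept direction and side of the threshold, 7 newly passed (5 of Cox7a1, 1 of Cyct and 1 of Ndufaf7) and 27 changed sign, none of them of a gene that passed under any setting. Cox7a1 passed with the trended robust variance, without dim genes, with the replicate block, with array weights and without knockout mouse 2, and its adjusted p ran from 0.021 to 0.364 over the 20. Uqcrfs1 was 0.037 with renewed quantile normalization, 0.011 with array weights, 0.049 with Cre-free controls and 0.067 without both mice numbered 1. Sdha was -0.0014 and Uqcrc2 -0.014 with arrays centred. Uqcrc2 was -0.0055 and Ndufab1 0.017 with Cre-carrying controls, and Ndufa4l2 was 0.011 with Cre-free controls. With the Y-linked covariate Sdha was -0.012, Uqcrq -0.013 and Ndufa4l2 0.034. Without both mice numbered 1, Sdhc was -0.012 and Ndufa4 0.049. With 1 mouse left out, Uqcrfs1 was -0.053 to 0.051, Sdha -0.0088 to 0.062, Uqcrc2 -0.011 to 0.037, Ndufa4 -0.075 to 0.037 and Ndufa4l2 -0.092 to 0.032. The cause of these changes was not tested. Without the dim genes fewer genes are tested and adjusted over.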
